A study of Mus musculus with 12 samples.

Results

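Autophagy and lysosome genes, 39 in all, were examined by ATAC-seq in mouse hematopoietic stem cells (HSCs), which had been isolated from bone marrow. The list was fixed by name and runs from the kinases that start autophagy to the enzymes of the lysosome and the mTORC1 kinase that restrains both. Accessible regions were taken from the peak summits of 12 libraries, and every region in the GENCODE body of a listed gene or within 10 kb on either side was kept. This gave 166 regions, at least 1 for each of the 39 genes, out of a catalogue of 71006 regions. The libraries fell into 4 groups of 3. Young WT and Aged WT were C57BL/6 mice with an intact Mlkl gene at 3 and 18 months of age, and Young Mlkl-/- and Aged Mlkl-/- were mice without functional Mlkl at the same ages. Mlkl encodes the pseudokinase that carries out necroptosis, and the design asks which accessible regions of HSCs differ by age, by Mlkl genotype or by both. Per the study's methods, each library came from sorted HSCs pooled from several mice, so the spread between libraries is a spread between pools. Pools of young libraries held more mice than those of aged libraries, so that pool size and age cannot be told apart here. Both genotypes were raised and aged in the study's own animal facility, the deletion is in every cell of the body, and the sex of the pooled animals was not given per library.

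Autophagy encloses cytoplasm, mitochondria included, in a double membrane that fuses with the lysosome, where the content is degraded. In HSCs autophagy is known for holding down the number of active mitochondria and for keeping quiescent cells able to self-renew. The pathway is switched on when ULK1 is released from mTORC1, and in the nucleus TFEB, TFE3 and MITF bind CLEAR sites, palindromes built on the E-box CACGTG, in front of lysosome and autophagy genes.

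Because accessibility at a promoter is read here beside the DNA it exposes, E-boxes upstream of the RefSeq starts of some listed genes are shown first. Bases come from the RefSeq promoter table and genome of build GRCm38.p6 (mm10), written 5′ to 3′ on the strand of the gene, with the searched motif in capitals and positions counted from the RefSeq start. The full CLEAR core TCACGTGA stood upstream of the RefSeq start of these 3 genes, each with an accessible promoter in all 12 libraries:
Ctsd, site at −98, chr7:142387908-142387937, minus strand: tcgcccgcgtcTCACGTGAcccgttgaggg
Mcoln1, site at −45, chr8:3500462-3500491, plus strand: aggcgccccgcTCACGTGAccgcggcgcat
Atg3, site at −71, chr16:45158746-45158775, plus strand: ggagagtcgagTCACGTGAggccttaggtg
The shorter E-box was found a second time at each of these genes, and once at the start of Atg5 and of Atg14:
Ctsd, site at −245, chr7:142388048-142388077, minus strand: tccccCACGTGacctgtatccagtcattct
Mcoln1, site at −71, chr8:3500436-3500465, plus strand: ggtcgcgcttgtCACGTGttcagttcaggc
Atg3, site at −94, chr16:45158723-45158752, plus strand: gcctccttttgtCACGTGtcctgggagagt
Atg5, site at −14, chr10:44268313-44268342, plus strand: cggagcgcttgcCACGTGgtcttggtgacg
Atg14, site at −1, chr14:47568418-47568447, minus strand: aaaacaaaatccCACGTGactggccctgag
Ctsd encodes the lysosomal protease cathepsin D, Mcoln1 the calcium channel of the lysosomal membrane, and Atg3 the enzyme that passes LC3 to its lipid. The printed cores lay 71 bp (Ctsd), 37 bp (Mcoln1) and 5 bp (Atg3) from the highest ATAC-seq summit of the promoter region. The GENCODE gene start lay further upstream at Ctsd (142388038) and Mcoln1 (3500457), so by GENCODE both of these cores lay past the start. The Atg3 core lay before either start. Lamp1, which encodes an abundant glycoprotein of the lysosomal membrane, held 4 E-boxes in the last bases before its start:
Lamp1 upstream, chr8:13158911-13159160, plus strand: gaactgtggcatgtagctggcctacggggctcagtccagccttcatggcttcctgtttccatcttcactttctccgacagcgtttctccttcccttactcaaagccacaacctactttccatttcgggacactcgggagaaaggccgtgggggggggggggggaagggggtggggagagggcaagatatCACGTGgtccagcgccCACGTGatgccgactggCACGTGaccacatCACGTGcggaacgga
These 4 sites began at −61, −45, −28 and −15 and lay 127 to 173 bp from the summit. In the RefSeq window from 250 bases before to 50 bases after a start, 32 of the 39 genes could be matched. CACGTG was present in 8 of them (25.0%), against 8.09% of 27025 genes, and TCACGTGA in 3 (9.38% against 1.12%). The 8 include Atg7 (1 site, at −132) and Ctsl (1 site, at −236), which are not printed. At Atg7 the RefSeq start lay 28001 bp from the summit of the promoter region, so that E-box is not in the accessible promoter described here.

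The values behind all comparisons were as follows. A score in the deposited lists is the −log10 of the q-value of a summit, and it depends on the depth of its own library. The number of summits with a score of at least 3 ranged from 35714 to 61495 per library, so each list was reduced to its 35714 highest scores. A region was called in a library when 1 of these summits fell in it. Regions were then ranked by score within each library, and the ranks were expressed as normal scores. A normal score of 0 is the middle of the ranking, higher is more accessible relative to the other regions of that library, and a region without a call sits between −0.57 and −0.52. The score is a relative rank and is not divided by the width of a region. Regions called in at least 3 libraries were tested (37880 of the catalogue, 106 of the 166) with limma on all 12 libraries, and the threshold was a Benjamini-Hochberg adjusted p of 0.01 over all 37880. Mlkl itself had a called promoter region in all 12 full lists, so accessibility there does not check the genotype labels. In the reduced lists, promoters of HSC markers were called in all 12 libraries for 4 of 10 genes (Hlf, Kit, Meis1 and Tal1) and in none for Mecom and Slamf1. At least 1 call was found for 8 of 10 in the reduced lists and for 9 of 10 in the full lists. Summits at Y-linked genes were present in 3 young and 0 aged lists, so that sex composition of the pools and age cannot be told apart here. The count of promoters called throughout the reduced lists was 0 of 5 for T cell markers, 0 of 6 for granulocyte and macrophage markers, 1 of 5 for B cell markers, 1 of 4 for erythroid markers and 4 of 4 for megakaryocyte markers. In the full lists at least 1 call was found for 1 of 5, 1 of 6, 2 of 5, 2 of 4 and 4 of 4, respectively.

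Most promoters of the pathway were called in every library. Of the 166 regions, 44 lay within 1 kb of a start of the listed gene itself, 19 at the start of a neighbouring gene, and 103 were distal. Own promoter regions were called in all 12 libraries in 35 of 44 cases (79.5%), compared with 49.5% of the 18368 promoter regions in the catalogue. Their median normal score over all libraries was 1.04, compared with 0.64 for all promoter regions. Of the distal regions 7 of 103 (6.80%) were called in all libraries, beside 12.3% of the 52638 regions of the catalogue away from starts. Median normal scores of distal regions were −0.33 and −0.40, respectively. In every library between 38 and 41 of the 44 own promoter regions were called (86.4% to 93.2%, beside 64.8% to 70.3% of all promoter regions). Between 26 and 42 of the 103 distal regions were called (25.2% to 40.8%, beside 29.5% to 35.8% of all regions away from starts), so that within single libraries the distal shares overlapped those of the catalogue. Among the distal regions, 71 were intronic, 19 lay downstream of the gene, 8 upstream, 3 in coding exons and 2 in untranslated exons.

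**Figure D1:**
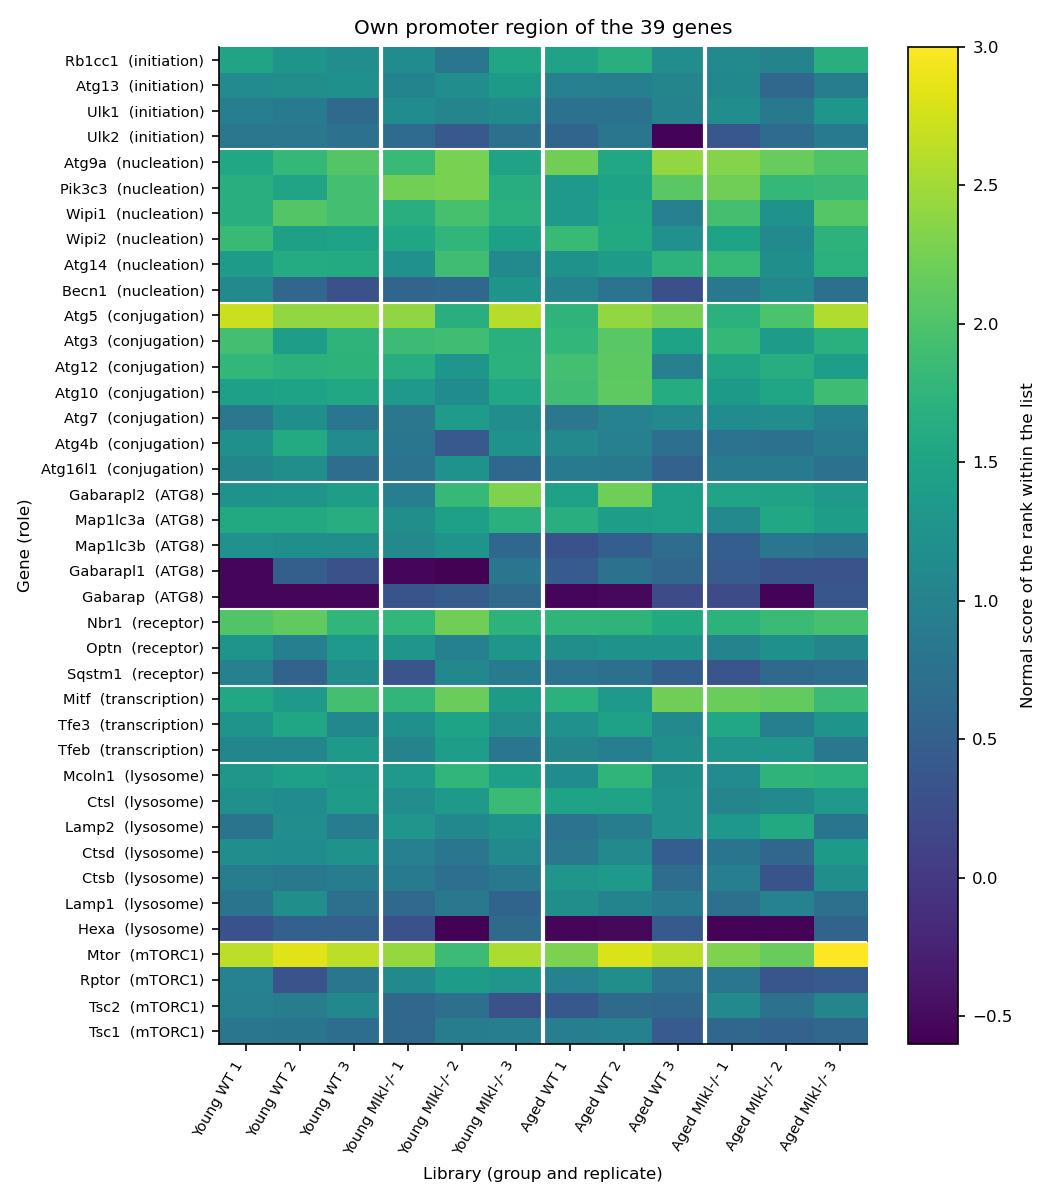
Heat map of the normal score (colour) of the most widely called own promoter region of each of the 39 genes (rows, grouped by role) in each of the 12 libraries (columns, grouped by age and genotype). Mtor and Atg5 are the brightest rows, and the dark cells at Gabarap, Gabarapl1, Hexa and Ulk2 are libraries without a call.

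Promoters of the ULK1 complex, which initiates autophagy, ran from the middle of the list to its lower end. The mean normal score over 12 libraries was 1.29 for Rb1cc1 (the scaffold FIP200), 1.05 for Atg13, 0.97 for Ulk1 and 0.58 for Ulk2. Ulk2 was called in 11 libraries and lacked a call only in Aged WT replicate 3. The genes of membrane nucleation stood higher, with a median of 1.60 over 6 promoters. Atg9a, the lipid scramblase of the growing membrane, had a mean of 1.97, Pik3c3 (the lipid kinase VPS34) 1.83, Wipi1 1.67, Wipi2 1.54, Atg14 1.49 and Becn1 0.76. The Atg9a promoter is shared with Ankzf1, that of Atg13 with Harbi1 and that of Rb1cc1 with a non-coding transcript. None of these regions therefore belongs to 1 gene alone.

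The conjugation enzymes, which attach ATG12 to ATG5 and LC3 to lipid, were called in all libraries for 7 of 7 genes. Atg5 had the second highest promoter of the list, at 2.24 ± 0.37 (SD, n = 12), and ranged from 1.67 to 2.71. Atg3 followed at 1.73, Atg12 at 1.62, Atg10 at 1.57, Atg7 at 1.04, Atg4b at 0.97 and Atg16l1 at 0.86. Of these, Atg3, Atg12 and Atg4b share their start region with an opposite gene (Slc35a5, Ap3s1 and Thap4). The receptors that tether cargo to LC3 were at 1.86 (Nbr1, shared with Brca1), 1.17 (Optn) and 0.72 (Sqstm1, which encodes p62).

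The ATG8 family, the small proteins that coat the membrane and bind the receptors, held 2 of the 4 genes whose most widely called promoter lacked a call in at least 1 library. Gabarapl2 was at 1.53, Map1lc3a at 1.47 and Map1lc3b at 0.84, each called in all 12 libraries. Gabarapl1 had a mean of 0.23 ± 0.50 (SD, n = 12) with 9 calls, and Gabarap of −0.08 ± 0.49 with 6. In the full lists, before the reduction to equal length, both were called in 11 libraries, so most of the missing calls were summits that ranked below the reduced lists. The Gabarapl1 promoter is shared with 1700101I11Rik, whose start lay nearer to the summit.

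The transcription factors of the pathway were called in all libraries, with means of 1.80 for Mitf, 1.27 for Tfe3 and 1.10 for Tfeb. Among the lysosome genes Mcoln1 had the highest promoter at 1.44, followed by Ctsl at 1.31, Lamp2 at 1.09, Ctsd at 0.97, Ctsb at 0.91 and Lamp1 at 0.85. Hexa, a subunit of the enzyme that is missing in Tay-Sachs disease, was at 0.04 ± 0.53 (SD, n = 12) and was called in 7 libraries. The mTORC1 branch contained the highest promoter of all. Mtor, the kinase itself, was at 2.51 ± 0.32 (SD, n = 12), between 1.87 and 3.02, and its mean rank was at the 99.2nd percentile of the catalogue. Its partner Rptor (0.87) and the inhibitors Tsc2 (0.76) and Tsc1 (0.74) were among the lower ones. The ranges of Mtor and Atg5 overlapped over the libraries, as did those of all genes next to each other in this order of means.

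Age did not move any region of the pathway past the threshold. The question was whether HSCs of 18 months differ from those of 3 months at these genes. Over both genotypes, 0 of 106 tested regions passed in limma (adjusted p of 0.01), while 2.72% of all tested regions did. At an unadjusted p under 0.05 there were 20 (10 higher and 10 lower in aged cells), or 18.9% against 22.2% of all tested regions. For 0 of the 106 did the 6 young and 6 aged values fail to overlap, against 3.72% of all tested regions. The median difference, aged minus young, was −0.03 in normal score, and −0.01 over all regions. At own promoters it was −0.04, the same as for all promoters, with 17 of 41 above 0, and at distal regions it was 0.02 against 0.03, with 28 of 53 above 0. Differences ran from −0.77 to 0.75, with a median standard error of 0.21. A p that missed the threshold does not show that the groups were alike.

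**Figure D2:**
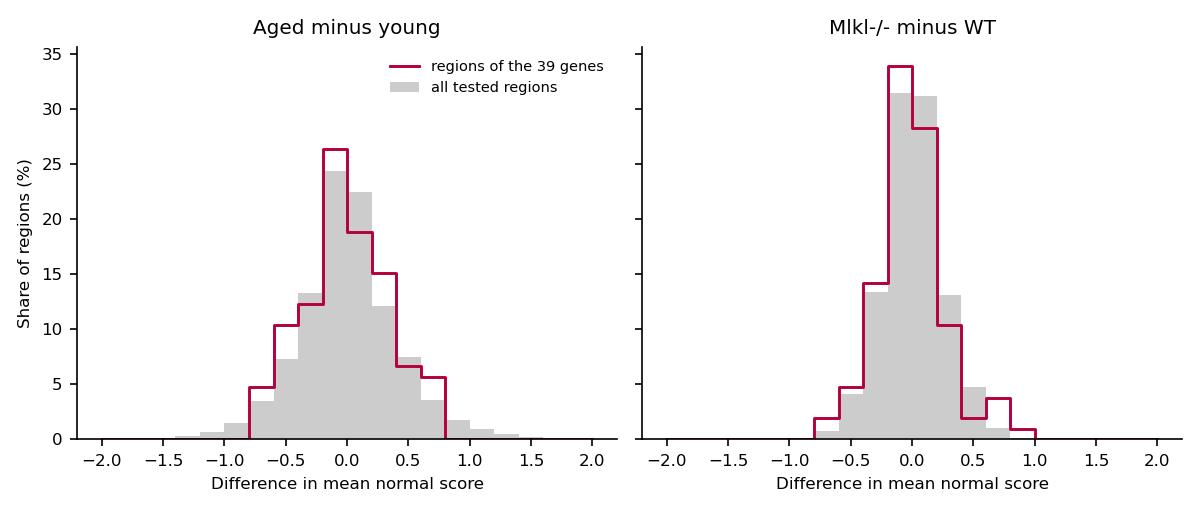
Histograms of the difference in mean normal score for age (aged minus young, over both genotypes) and for genotype (Mlkl-/- minus WT, over both ages), as the percentage of regions in each bin, for the 106 tested regions of the pathway and all 37880 tested regions. Pathway regions stay between −0.77 and 0.75 with age, inside the wider spread of all regions.

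Within WT mice, 0 of 106 regions passed with age against 0.193% of all tested regions, with 7 at an unadjusted p under 0.05 (6.60% against 14.6%). Within Mlkl-/- mice the limma count was likewise 0, against 0.15%, with 13 at an unadjusted p under 0.05 (12.3% against 14.4%). Young and aged values were fully separated, 3 against 3, for 15 regions in WT (3 higher, 12 lower in aged), or 14.2% beside 17.2% of all tested regions, and for 12 in Mlkl-/- (6 higher, 6 lower), or 11.3% beside 15.9%. Calls present in all 3 libraries of one age and none of the other were found for 0 regions in WT (4.23% of all tested) and 1 in Mlkl-/- (4.12%). The age difference had the same sign in both genotypes for 73 of 106 regions (68.9%, compared with 64.2% of all tested regions).

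Map1lc3b, which encodes LC3B, the protein used to mark autophagosomes, had the lowest adjusted p of the list for age. Its promoter region (chr8:121590066-121590815, spanning the start) had normal scores of 1.23, 1.20 and 1.18 in Young WT and 1.10, 1.27 and 0.60 in Young Mlkl-/-. Values were 0.31, 0.47 and 0.68 in Aged WT and 0.47, 0.82 and 0.75 in Aged Mlkl-/-. All Aged WT values were below all Young WT values, whereas Young Mlkl-/- replicate 3 lay among the aged libraries. The mean was 1.10 ± 0.25 (SD, n = 6) in young and 0.58 ± 0.20 (SD, n = 6) in aged cells, a difference of −0.51 (SE 0.15) that missed the threshold in limma (adjusted p = 0.0436). It was −0.71 (SE 0.21) in WT and −0.31 (SE 0.21) in Mlkl-/-, and these did not differ from each other past the threshold (difference 0.40, SE 0.30, limma adjusted p = 0.965, unadjusted 0.198). At the Gabarapl1 promoter the difference was 0.49 (SE 0.27, limma adjusted p = 0.293), but −0.09 with summits at Y-linked genes as a covariate, so that its sign depended on the fit.

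A few more regions at the transcription factors and the lysosome genes are given here. They were chosen after their values were seen. A second start of Mitf (chr6:97929261-97930017) was called in 1 young and 5 aged libraries, and its mean was −0.38 ± 0.40 (SD, n = 6) in young and 0.29 ± 0.46 (SD, n = 6) in aged cells (difference 0.67, SE 0.25, limma adjusted p = 0.12). The first start of Mitf, at 1.80, was called in all 12. A region downstream of Tfe3, 14.9 kb from the start and nearest to the start of Gripap1, had 2 calls in young and 6 in aged libraries (difference 0.75, SE 0.27, limma adjusted p = 0.103). At Tfeb a region 16.8 kb before the nearest start had 6 calls in young and 2 in aged libraries (difference −0.68, SE 0.25, limma adjusted p = 0.102). Of the 9 tested distal regions of these 3 factors, 4 had an age difference above 0, beside 28 of 53 for the whole pathway. The regions picked here do not describe the factors as a whole. In an intron of Ctsb, which encodes cathepsin B, a region 10.0 kb past the start (chr14:63132182-63132782) had scores of 1.12, 0.30 and 0.59 in Young WT. They were 0.35, −0.57 and −0.52 in Young Mlkl-/-. Aged WT libraries were at 0.79, 0.28 and 1.76, and Aged Mlkl-/- libraries at 1.18, 0.66 and 0.94. The lowest 2 values were both from Young Mlkl-/-, and the age difference over both genotypes was 0.72 (SE 0.25, limma adjusted p = 0.0884).

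Loss of Mlkl was examined at each age and over both. At 3 months, 0 of 106 regions passed in limma, as for all tested regions (0.0%), with 12 at an unadjusted p under 0.05 (11.3% against 5.36%) and a lowest adjusted p of 0.579. At 18 months the count was 0 (0.0% of all tested), with 3 at an unadjusted p under 0.05 (2.83% against 5.10%). Over both ages it was 0 (0.0%), with 12 at an unadjusted p under 0.05 (11.3% against 6.22%). In 0 regions did the 6 Mlkl-/- and the 6 WT values fail to overlap, against 0.116% of all tested. At 3 months, values did not overlap for 5 regions that were higher in Mlkl-/- (4.72%, beside 3.62% of all tested) and 8 that were lower (7.55%, beside 4.45%). At 18 months there were 5 higher (4.72%, beside 4.73%) and 2 lower (1.89%, beside 3.87%). Calls in all 3 libraries of one genotype and none of the other were seen at 4 regions at 3 months (3.77% of the 106, beside 1.04% of all tested) and at 1 region at 18 months (0.943%, beside 1.1%). The 5 regions are described below with the others that the largest non-overlapping differences named, and none of these differences passed the threshold.

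2 of the 4 regions at 3 months belonged to the GABARAP branch of the ATG8 family and were called only in Mlkl-/-. The Gabarap promoter (chr11:69990669-69991958) had no call in the 3 Young WT libraries (−0.54, −0.53 and −0.54) and scores of 0.33, 0.44 and 0.64 in Young Mlkl-/-. In aged cells calls were mixed, with −0.54, −0.53 and 0.24 in Aged WT and 0.23, −0.56 and 0.36 in Aged Mlkl-/-. The difference at 3 months was 1.01 (SE 0.34, limma adjusted p = 0.678). An intronic region of Gabarapl1, 2.6 kb past its start (chr6:129535604-129536223), showed the same calls, with −0.54, −0.53 and −0.54 in Young WT and 0.52, 0.50 and 0.49 in Young Mlkl-/-. In aged cells it was called in Aged Mlkl-/- replicate 3 alone (0.49). The difference at 3 months was 1.04 (SE 0.32, limma adjusted p = 0.579), the largest positive value of the list. In the full lists both regions were also called in 2 of 3 Young WT libraries, so the contrast is one of rank and not of presence. With lists of unequal length the differences were 0.60 at both regions.

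**Figure D3:**
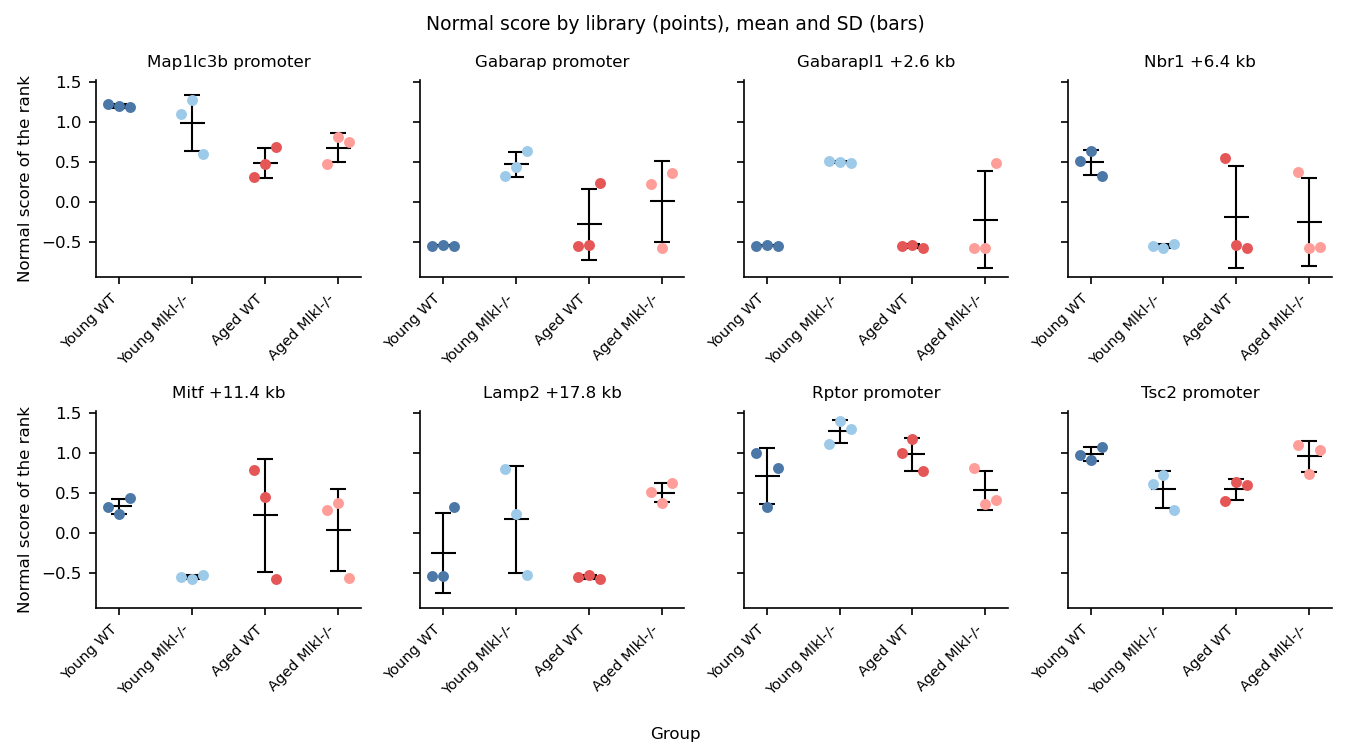
Normal scores of 8 regions in the 4 groups. Points are libraries (3 per group), bars are the mean ± SD, and points near −0.55 are libraries without a call. In the reduced lists the Gabarap promoter and the Gabarapl1 intron are called in all Young Mlkl-/- and no Young WT libraries, and the Nbr1 and Mitf introns show the opposite.

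The other 2 regions were called only in WT at 3 months in the reduced lists. One lay in an intron of Nbr1, the receptor for ubiquitylated cargo, 6.4 kb past its nearest start (chr11:101562258-101562978). It had scores of 0.52, 0.64 and 0.33 in Young WT and no call in Young Mlkl-/-. At 18 months each genotype had 1 call (0.55 in Aged WT replicate 1, 0.38 in Aged Mlkl-/- replicate 1). The difference at 3 months was −1.04 (SE 0.36, limma adjusted p = 0.722), and −0.67 with scores of at least 5. In the full lists 2 of 3 Young Mlkl-/- libraries had a call. An intronic region of Mitf, 11.4 kb past its nearest start (chr6:98003007-98003629), had 0.32, 0.24 and 0.43 in Young WT and no call in Young Mlkl-/-, a difference of −0.88 (SE 0.37, limma adjusted p = 0.87). With scores of at least 5 it was −0.29, and in the full lists 1 of 3 Young Mlkl-/- libraries had a call. Aged cells of both genotypes had 2 calls each.

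At 18 months the 1 such region lay in an intron of Lamp2, 17.8 kb past its start (chrX:38438275-38438969). LAMP2 is the lysosomal membrane protein needed for the fusion of autophagosomes and for chaperone-mediated autophagy. The region was called in 0 Aged WT and 3 Aged Mlkl-/- libraries, with scores of 0.51, 0.38 and 0.62 in the latter. At 3 months it was called in 1 WT and 2 Mlkl-/- libraries. The difference at 18 months was 1.05 (SE 0.36, limma adjusted p = 0.774), and 0.61 with lists of unequal length. In the full lists all 3 Aged WT libraries had a call.

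These 4 intronic regions are printed because, at 1 age, all libraries of one genotype and none of the other had a call. This held in the reduced lists only, and in the full lists the other genotype had calls at each of them. Each run covers 100 bases on either side of the highest summit (GRCm38.p6), and capitals mark a match to 1 of the searched motifs:
Gabarapl1 intron, chr6:129535847-129536047, plus strand: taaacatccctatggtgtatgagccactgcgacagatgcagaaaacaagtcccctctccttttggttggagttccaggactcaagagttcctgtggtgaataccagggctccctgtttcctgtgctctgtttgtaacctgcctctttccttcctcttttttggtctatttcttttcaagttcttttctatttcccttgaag
Nbr1 intron, chr11:101562482-101562682, plus strand: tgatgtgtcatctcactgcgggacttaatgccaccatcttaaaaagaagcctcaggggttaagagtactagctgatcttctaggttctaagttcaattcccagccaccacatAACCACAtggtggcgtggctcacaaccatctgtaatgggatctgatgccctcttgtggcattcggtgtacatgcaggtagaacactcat
Mitf intron, chr6:98003262-98003462, plus strand: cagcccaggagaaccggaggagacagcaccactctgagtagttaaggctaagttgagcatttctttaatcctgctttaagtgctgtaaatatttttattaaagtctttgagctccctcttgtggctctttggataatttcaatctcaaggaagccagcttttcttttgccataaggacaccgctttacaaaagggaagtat
Lamp2 intron, chrX:38438510-38438710, plus strand: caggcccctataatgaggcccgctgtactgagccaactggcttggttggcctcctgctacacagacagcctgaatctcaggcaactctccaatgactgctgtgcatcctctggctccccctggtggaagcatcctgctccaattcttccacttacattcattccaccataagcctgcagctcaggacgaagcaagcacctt
None of the 4 overlapped an annotated exon. The Nbr1 sequence held the RUNX motif TGTGGTT, on the minus strand, and the other 3 held none of the 7 motifs searched. Their GC content was 44.8% (Gabarapl1), 47.3% (Nbr1), 41.3% (Mitf) and 54.7% (Lamp2).

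The remaining regions named by the largest non-overlapping differences were these. In an intron of Rb1cc1, 57.8 kb past its nearest start, scores were −0.54, −0.53 and 0.23 in Young WT and 0.26, 0.91 and 0.58 in Young Mlkl-/-. At either age 1 of 3 WT libraries and 3 of 3 Mlkl-/- libraries had a call, and over both ages Mlkl-/- exceeded WT by 0.82 (SE 0.26, limma adjusted p = 0.763), the largest value of the list for that comparison. A region in a coding exon of Tsc2, 23.6 kb past the start, was lower in Young Mlkl-/- (0.31, −0.57 and −0.52) than in Young WT (0.58, 0.62 and 0.90), by −0.96 (SE 0.35, limma adjusted p = 0.765). At 18 months a region downstream of Map1lc3b, 12.3 kb from the start, was at 0.54, −0.53 and 0.63 in Aged WT and 0.74, 0.94 and 0.89 in Aged Mlkl-/- (difference 0.64, SE 0.37, limma adjusted p = 0.87). Without Aged WT replicate 2, the library without a call, the difference at Map1lc3b was 0.27, and with lists of unequal length 0.38. An intronic region of Atg7, 5.6 kb past the start, was at 0.67, 0.49 and 0.19 in Aged WT and 1.09, 0.95 and 1.01 in Aged Mlkl-/- (difference 0.57, SE 0.34, limma adjusted p = 0.875). The 2 lower regions had small differences, −0.24 at the Gabarapl1 promoter (−0.75 with scores of at least 5) and −0.23 at a region 27.8 kb from the start of Hexa.

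Whether age moved a region differently in the 2 genotypes was tested as an interaction. The limma count was 0 of 106 (0.0% of all tested regions), with 3 at an unadjusted p under 0.05 (2.83% against 4.74%). All 3 are named here after their values were seen. The Rptor promoter (chr11:119602722-119603568), at the gene of the mTORC1 scaffold Raptor, was at 0.99, 0.32 and 0.81 in Young WT and 1.11, 1.39 and 1.30 in Young Mlkl-/-. With age it was at 1.0, 1.18 and 0.77 in WT and 0.81, 0.36 and 0.42 in Mlkl-/-. All Aged Mlkl-/- values were thus below all Young Mlkl-/- values, while those of WT overlapped. The age difference was 0.27 (SE 0.22) in WT and −0.73 (SE 0.22) in Mlkl-/-, and the difference between them −1.01 (SE 0.31, limma adjusted p = 0.965). At the Tsc2 promoter, shared with Nthl1, the order was the opposite, with age differences of −0.44 in WT and 0.41 in Mlkl-/- (interaction 0.85, SE 0.30, limma adjusted p = 0.965). The third lay 12.5 kb from the start of Atg9a, at the start of Abcb6 (interaction 0.65, SE 0.25, limma adjusted p = 0.965).

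Distal regions were unevenly spread over the genes. Atg7 (15), Atg10 (10), Rptor (8), Mitf (6) and Tfeb (6) had the most, and Atg7, Atg10, Rptor and Mitf are long genes of 214 to 297 kb, and 6 genes had only their own promoter region (Atg4b, Atg16l1, Map1lc3a, Lamp1, Ulk2 and Wipi2). The 7 distal regions called in all 12 libraries lay at Map1lc3b (4.8 kb upstream, mean normal score 1.57), Atg10 (17.6 kb past the start, 1.31), Mtor (61.0 kb, 1.11), Ulk1 (1.7 kb, 1.05), Atg14 (34.6 kb, 0.99), Tsc2 (21.7 kb, 0.74) and Tfe3 (1.9 kb, 0.73). The region upstream of Map1lc3b thus ranked above the Map1lc3b promoter, at 0.84. Of the 60 regions that were not tested, 30 were called in 1 or 2 libraries and 30 in none once the lists had been reduced, and 50 of the 60 were distal.

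**Figure D4:**
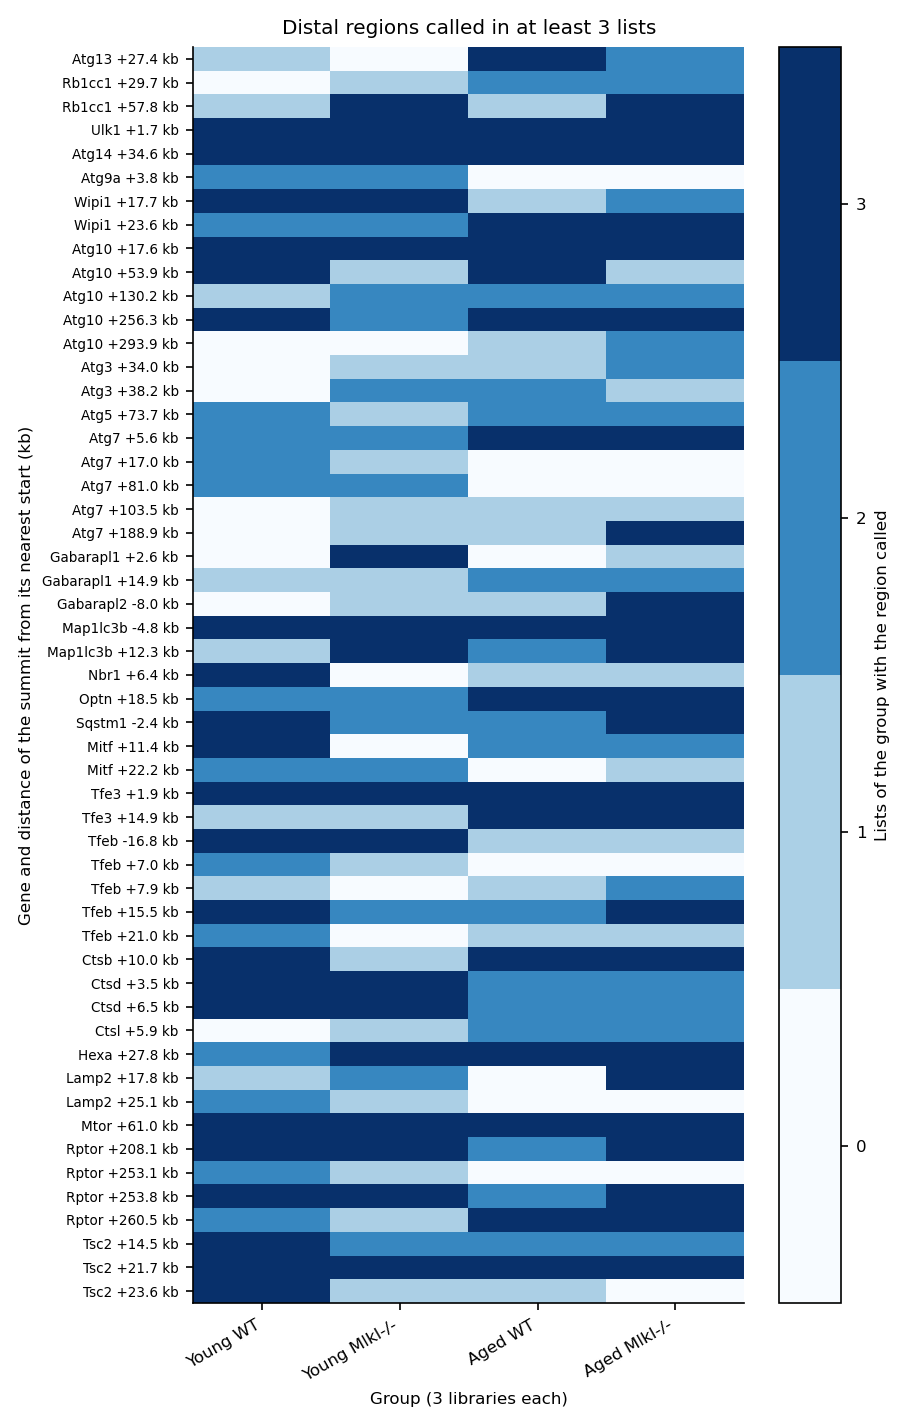
Number of libraries (0 to 3, colour) in which each of the 53 tested distal regions was called, in each of the 4 groups (columns). Rows are labelled with the gene and the distance in kb from its nearest start, and the 7 fully dark rows are the regions called in all 12 libraries.

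The number of pathway regions called per library overlapped between the 4 groups after the reduction to equal length, with 87.7 ± 0.58 for Young WT and 85.0 ± 7.55 for Young Mlkl-/- (mean ± SD, n = 3 each). Aged WT had 84.3 ± 6.43 and Aged Mlkl-/- 88.3 ± 5.13. As shares of the 166 regions these means were 50.8% to 53.2%, beside 41.0% to 42.6% of the whole catalogue. In the full lists it was 104 ± 13.8, 104 ± 27.0, 116 ± 10.6 and 118 ± 11.8, respectively. The share of all catalogue regions called in the full lists was likewise higher in aged cells, at 49.1% and 53.3% in Young WT and Young Mlkl-/- and 62.3% and 63.5% in Aged WT and Aged Mlkl-/-. The number of summits kept per library moved with these counts, and its part in them was not tested.

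Sequence around the summits differed between promoters and distal regions. Within 100 bp of the summit, on either strand, CACGTG was found in 9 of 44 own promoter regions (20.5%) against 6.91% of all promoter regions. The genes were Atg3, Atg5, Atg14, Ctsd, Gabarapl2, Hexa, Lamp1, Mcoln1 and Wipi1. TCACGTGA, which contains CACGTG, was in 4 (9.09% against 0.947%), at Atg3, Ctsd, Lamp1 and Mcoln1, and in 0 of 103 distal regions (0.274% of all regions away from starts). The Lamp1 match is not among the 4 Lamp1 E-boxes printed above, which lay 127 to 173 bp from the summit and outside this window. The AP-1 motif TGANTCA showed the reverse placement, with 0 of 44 own promoters (4.76% of all) and 23 of 103 distal regions (22.3% against 12.1%). The RUNX motif TGTGGTT was in 3 promoters (6.82% against 4.01%) and 16 distal regions (15.5% against 12.5%). The ETS motif CGGAAGT was in 5 promoters (11.4% against 7.46%) and 0 distal regions (1.58%). The FOXO motif TGTTTAC was in 0 promoters (1.56%) and 3 distal regions (2.91% against 3.20%), and the CRE TGACGTCA in 2 promoters (4.55% against 2.07%) and 1 distal region (0.971% against 0.454%). Of the 23 distal regions with an AP-1 motif, 16 were tested for age, with a median difference of −0.03 and 7 above 0, beside 0.03 over all tested distal regions with the motif. A match is a run of letters and not a bound site.

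**Figure D5:**
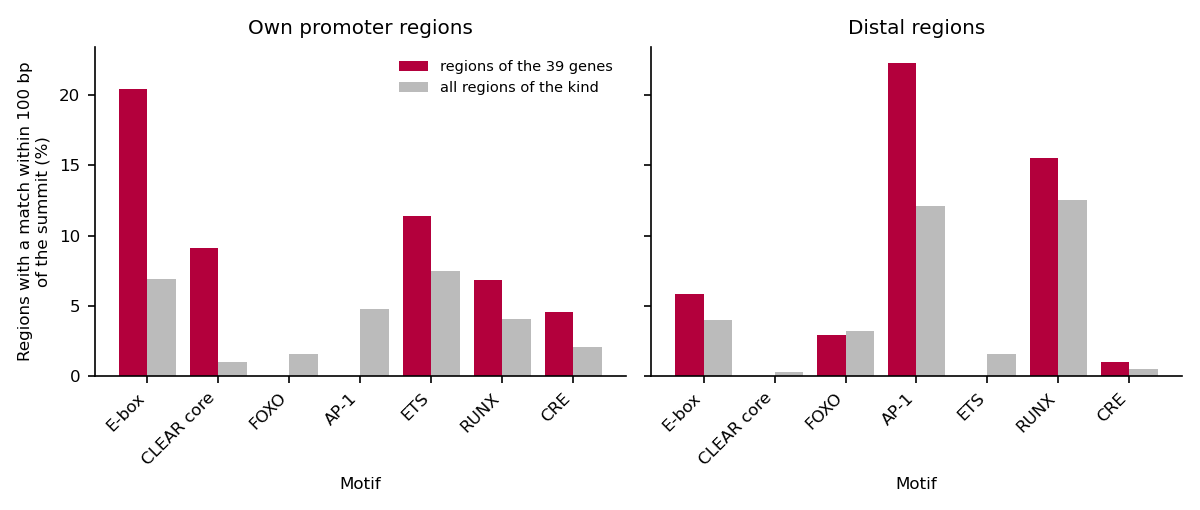
Percentage of regions with each motif within 100 bp of the summit (bars from 0), for the 44 own promoter regions and the 103 distal regions of the 39 genes (red) and for all catalogue regions of the same kind (grey). The E-box and CLEAR core stand above the grey bars at promoters, and AP-1 at distal regions.

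The wider pathway was described with 69 further genes in 3 lists, which were 23 of autophagy, 27 of the lysosome and 19 of mTORC1 signalling. Their own promoter was called in all 12 libraries for 22, 23 and 17 genes, respectively. Of all promoter regions in the catalogue 49.5% were called in all libraries, a share counted by region and not by gene. Of their 275 regions 179 were tested, and with age over both genotypes 3 were higher in aged cells in limma and 0 were lower. An unadjusted p under 0.05 was reached by 32 of the 179, beside 22.2% of all tested regions. In the other 6 comparisons 0 passed. The intron of Ctsc, the protease that activates granule enzymes of myeloid cells, held a region 28.7 kb past the start (chr7:88306593-88307146) with a call in 0 of 6 young libraries and in 6 of 6 aged ones. Its mean rose from −0.54 ± 0.02 to 0.74 ± 0.24 (SD, n = 6 each), by 1.28 (SE 0.22, limma adjusted p = 0.00134). Deptor, which encodes an inhibitor bound to mTOR, held the other 2. The region 84.7 kb past its start was called in all 12 libraries and rose from 1.23 ± 0.12 to 1.79 ± 0.26 (difference 0.56, SE 0.11, limma adjusted p = 0.0041). The region 90.9 kb past the start was called in 0 young and 5 aged libraries (difference 1.06, SE 0.23, limma adjusted p = 0.00906). With 3 of 179 regions (1.68%), the share was near the 2.72% of all tested regions.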

How the data were processed

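ATAC-seq libraries (12, in 4 groups of 3) were processed by the authors. Per the labels, reads were mapped to mm10, and the submitters' processing notes name Bowtie2 2.5.3, MACS2 2.2.7.1, bedtools 2.31.0 and edgeR 3.30.3. Peaks were called in each library separately, and the deposited score of each summit is the −log10 of its q-value. The files hold no read counts, so depth is unknown and no count model or counting interval could be used; between 36805 and 63125 summits were deposited per library.

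Summits with a score of at least 3 on chromosomes 1 to 19, X and Y were extended by 250 bp on each side and merged over the 12 lists. Lists were cut to 35714 summits, ranked, and compared with limma 3.58.1 in R 4.3.3 (group means, trend, 7 contrasts, no replicate block). The fit was tested on simulated data. These lacked the tied lowest ranks of regions without a call, so the simulation cannot show how the fit behaves with such ties. Promoters were regions within 1 kb of a GENCODE start. Distances of regions from a start were counted from the nearest GENCODE start of the gene, which can lie inside the gene body. For overlap between groups, libraries without a call counted as tied. p-values measure the spread between these pools only. The member genes, lists and tests were chosen with earlier results of these data known. Named regions were the most widely called promoter of each gene, the 3 largest non-overlapping differences per direction for genotype at each age and over both, the 6 largest for age, and regions called in one group only; others are said to be chosen after their values were seen. Alternatives changed list length, score, window, flank, scale, covariates and libraries. Sequences were read with pysam 0.24.0 from RefSeq tables and the genome of GRCm38.p6. For 1 region counted among the totals no values are reported here.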

Additional observations from a re-analysis of the deposited data

How the results depend on the processing

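In limma, 0 pathway regions passed an adjusted p of 0.01 in any of the 7 comparisons under all alternatives run. These were lists of unequal length, a score minimum of 5, a catalogue from the reduced lists, windows of 100 bp, a flank of 2 kb, regions called in at least 1 or 6 libraries, percentile ranks, autosomes only, separate fits, covariates, the 9 libraries that share a file tag and each library left out (range 0 to 0). Separate fits of 2 groups could not be made for age over both genotypes, genotype over both ages and the interaction, which need all 4. At a limma adjusted p of 0.05 the count for age over both genotypes was 2 of 106, beside 7.77% of all tested regions. The 0 counts also rested on within-list ranks, whose depth could not be read from the files.

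Deviations of libraries with the same replicate number, in different groups, correlated between −0.30 and 0.13 (median −0.01, 18 pairs). For libraries with different numbers the range was −0.18 to 0.31 (median 0.004, 36 pairs). No pairing by number was thus seen in the ranks, and whether same-numbered libraries shared a step of preparation was not tested. With the replicate number as a block the count was 0 in each comparison. For calls in one group only, the cause of the shifts was not tested. Lists of unequal length, with 139 pathway regions tested, gave 4 regions in place of 0 for age in WT and 2 in place of 1 for age in Mlkl-/-. Genotype gave 1 in place of 4 at 3 months and 0 in place of 1 at 18 months. With scores of at least 5, and 98 regions tested, it was 2 for age in WT, 2 for age in Mlkl-/- and 2 for genotype at 3 months. With autosomes only it was 0 for genotype at 18 months, since Lamp2 is X-linked. The share of all tested regions was not computed in these settings, so these counts cannot be set against it. Called regions per library, aged minus young, were 12.8 with lists of unequal length.

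Of 49 named regions, 24 kept the sign of their age difference under every alternative and 25 did not, the largest of the latter being 0.49 (Gabarapl1 promoter). The Map1lc3b promoter ranged from −0.68 to −0.36, with a lowest adjusted p of 0.015 without Young Mlkl-/- replicate 3 and a highest of 0.282.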
